A study of Caenorhabditis elegans with 2 samples.

Results

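The genes described here are 10 collagen genes of Caenorhabditis elegans that are known from mutants with an altered body shape, a rolling gait or a blistered cuticle: sqt-1, sqt-2, sqt-3, rol-6, bli-1, bli-2, dpy-13, dpy-17, dpy-14 and lon-3. They were chosen by name, with the collagens of the annular furrows left out, and all 10 were found in the annotation, which held 19973 protein-coding genes on the nuclear chromosomes. The measurement was a chromatin immunoprecipitation with sequencing (ChIP-seq) of the homeobox protein CEH-82, gene F45C12.2, fused at its C-terminus to GFP and FLAG. Both samples were whole L4 larvae of mixed sex, of strain OP212 with the genotype unc-119(ed3) III; ddEx58, and they were the 2 biological replicates of a single group. There was no untreated or untagged group to compare with, the control used in peak calling was not analysed here, and the labels do not say in which cells the fusion protein was made. The name ddEx58 is that of an extrachromosomal array while another label speaks of an insertion, and the copy number is unknown. A peak at a gene below is therefore a place where the authors' caller found signal, and binding of the protein there was not tested. Cells of all types were mixed, so fewer cells with signal and less signal per cell cannot be told apart.

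Nematode cuticle collagens are secreted by the epidermis, assemble as trimers through a Gly-X-Y repeat, and are laid down anew before each moult. Mutations that shorten the animal are called dumpy (dpy) or squat (sqt), and those that lengthen it long (lon). Those that twist the cuticle are called roller (rol), and those that detach its layers blister (bli). BLI-1 and BLI-2 are collagens of the struts, the columns that join the inner and outer layers of the adult cuticle.

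For each gene, peak summits were taken from 2000 bp upstream of the annotated start to 500 bp past the annotated end, on build ce11. The authors' list from the pooled reads of both replicates put 22 summits in the windows of 9 of the 10 genes, and dpy-14 had none. The lists of the single replicates put 10 summits (replicate 1) and 17 summits (replicate 2) there. The most frequent place was just past the gene end: 8 of the 10 genes had a pooled summit within the 500 bp that follow it. Such a summit was found for 12.3% of the 16314 protein-coding genes longer than 1000 bp and for 35.1% of the numbered cuticle collagens of that length. No peak of a single replicate overlapped the pooled summits past the ends of bli-1 and dpy-17. In the same 500 bp replicate 1 had summits at sqt-1, sqt-3 and bli-2, and replicate 2 at sqt-1, sqt-2, rol-6 and dpy-13. Only sqt-1 thus had a summit of both replicates there. At sqt-3 and bli-2 a replicate 2 peak overlapped the pooled one, but its summit lay outside these 500 bp. The strongest summits belonged to sqt-3, bli-2, dpy-13 and sqt-2. That of sqt-3, bli-2 and sqt-2 lay past the gene end, and that of dpy-13 lay upstream of the gene.

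The sequences under these strong summits are shown because they differ in kind: most lie outside the collagen coding sequence, and 1 lies within the collagen repeat itself. The 4 stretches below reach at most 100 bp to either side of the summit, stop where an annotated untranslated region begins, and read 5′ to 3′ on the strand of the named collagen gene. Capitals mark the word TAATTA, found in many homeodomain sites, the word GATAAG, found in sites of GATA factors, and the word TATAAA, found in TATA boxes, each on either strand. The sqt-2 stretch (II:24549-24665, + strand, 43.6% G+C) held 0 such words, and the sqt-3 stretch (V:12354630-12354830, + strand, 40.8% G+C) held 1. The bli-2 stretch (II:5651227-5651393, − strand, 29.9% G+C) and the stretch upstream of dpy-13 (IV:4234466-4234666, + strand, 30.8% G+C) held 2 each.
sqt-2, past the end: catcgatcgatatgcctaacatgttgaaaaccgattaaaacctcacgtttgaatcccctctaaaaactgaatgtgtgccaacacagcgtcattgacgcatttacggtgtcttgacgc
sqt-3, past the end: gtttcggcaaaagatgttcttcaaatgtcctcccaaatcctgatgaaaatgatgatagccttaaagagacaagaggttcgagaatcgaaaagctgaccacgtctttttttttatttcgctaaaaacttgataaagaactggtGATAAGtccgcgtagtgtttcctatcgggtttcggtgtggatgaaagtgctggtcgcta
bli-2, past the end: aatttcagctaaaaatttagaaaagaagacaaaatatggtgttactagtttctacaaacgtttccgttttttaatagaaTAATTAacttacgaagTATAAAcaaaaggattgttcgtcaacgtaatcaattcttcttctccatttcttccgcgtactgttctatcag
dpy-13, upstream: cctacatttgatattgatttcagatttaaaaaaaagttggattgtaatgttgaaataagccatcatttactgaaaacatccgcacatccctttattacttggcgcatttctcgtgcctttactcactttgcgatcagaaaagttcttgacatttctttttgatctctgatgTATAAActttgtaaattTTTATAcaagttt

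The remaining strong summit, at IV:4236523, lay in the last part of the dpy-13 coding sequence. A peak of each replicate overlapped the pooled peak, but neither held its summit. The replicate 1 peak ended before it, at 4236480, and the replicate 2 peak began after it, at 4236630. The stretch below (IV:4236477-4236623, + strand) holds 49 codons in frame, of which the 14 glycine codons are in capitals, and it was 60.5% G+C. In its longest run 12 of the glycine codons recur without a break, each with a pair of other codons after it, which is the Gly-X-Y repeat of the collagen helix.
dpy-13, in the gene: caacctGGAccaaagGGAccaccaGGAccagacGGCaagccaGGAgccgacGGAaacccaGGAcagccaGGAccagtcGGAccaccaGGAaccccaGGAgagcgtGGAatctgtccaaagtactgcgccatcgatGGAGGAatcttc

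Sequence of this kind can be hard to place where collagen genes share it, so words of 30 bases that also occur elsewhere in the genome were counted. In the dpy-13 gene 39 of 1068 words (3.65%) were repeated elsewhere, and in the sqt-3 gene 77 of 1547 (4.98%). The other 8 genes had between 0 and 3 repeated words each. Under the strong peaks the share was 0% for sqt-3, bli-2 and the peak upstream of dpy-13, 0.293% for the peak in dpy-13 and 3.52% for sqt-2. The authors' read length is not stated in the labels or files, and these shares apply to words of 30 bases only.

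**Figure D1:**
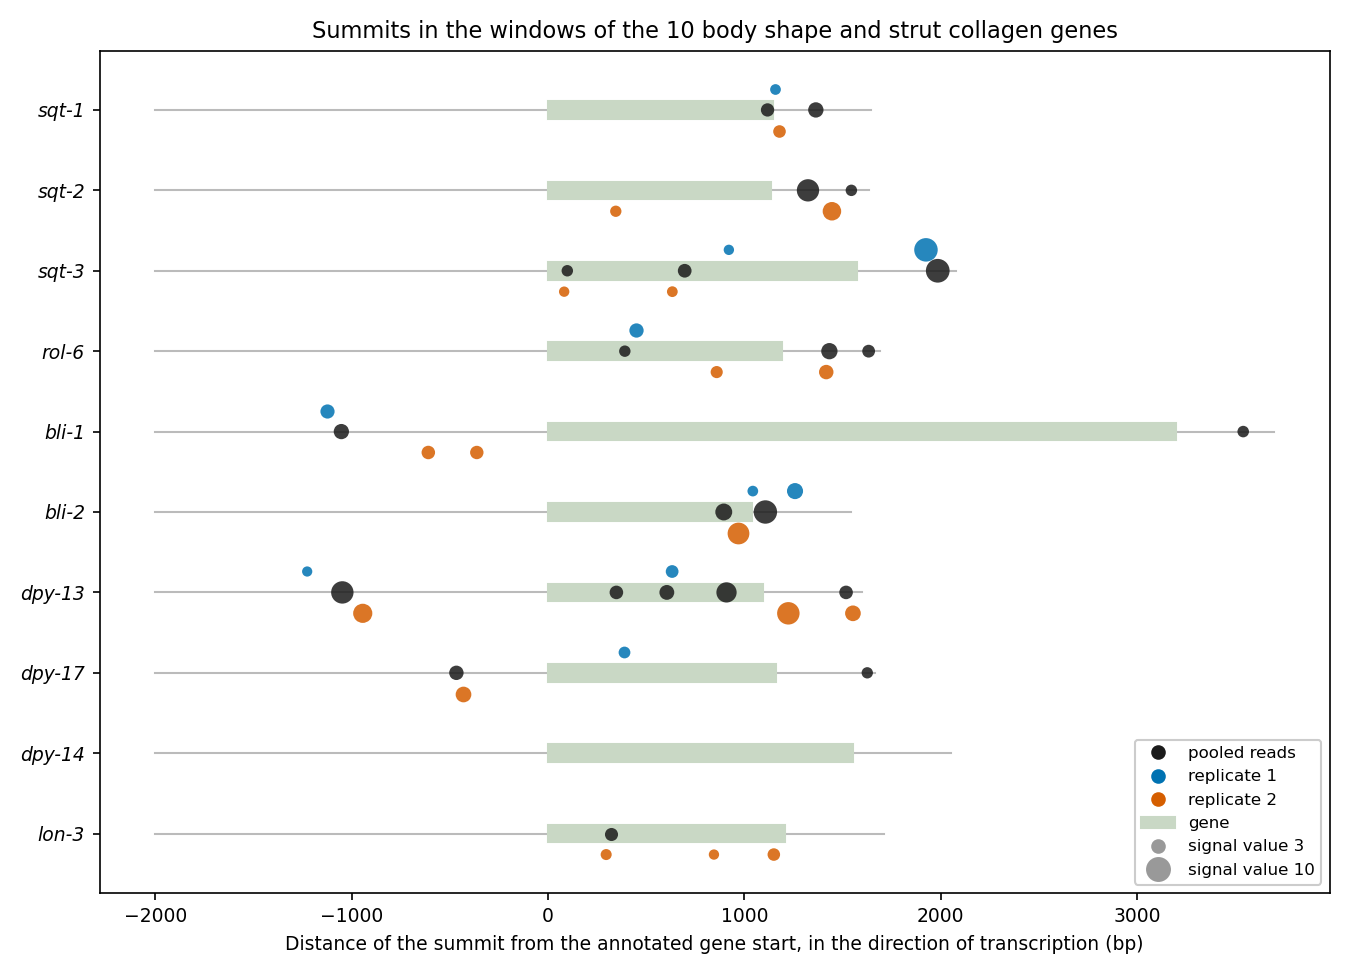
Position of every summit in the windows of the 10 genes, in bp from the annotated start in the direction of transcription, with the gene as a green bar and the window as a grey line. Dots are summits of the pooled list (black) and of replicates 1 (blue, above) and 2 (orange, below), their area follows the signal value and is to be read within a list only, and black dots follow the gene end in 8 genes.

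Among the collagens whose mutants roll or are squat, sqt-3 had the highest pooled signal value. The signal value is the score that the authors' caller gave to a peak, on a scale that is not stated, so it is read here by its rank within a list. The medians were 2.95 over 15658 pooled peaks, 2.66 over 4561 peaks of replicate 1 and 2.84 over 8651 peaks of replicate 2. The sqt-3 gene (WBGene00005018, V:12352745-12354320, + strand) encodes a collagen that is cut by the protease DPY-31. It had a pooled summit of signal value 10.8 (rank 181) in intergenic sequence 410 bp past its end, and the next annotated gene, a pseudogene, began 1935 bp past the end. Replicate 1 had a summit of 10.6 (rank 30) there, 350 bp past the end. Replicate 2 had one of 5.95 (rank 483) at 546 bp past the end, so that it fell just outside the window although its peak overlapped the pooled one. The signal beyond sqt-3 was thus among the highest of the replicate 1 list and was also present in replicate 2. Within the gene, the pooled summit in the 5′ UTR (2.52) was below the median of its list and the one in a coding exon (3.61) above it.

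At sqt-2 (WBGene00005017, II:23325-24458, + strand) a pooled summit of 9.56 (rank 266) lay 191 bp past the end. Replicate 2 had a summit of 6.58 (rank 373) at 313 bp past the end, and replicate 1 had none in the window. The pooled summit was also 17 bp from the start of enee-1, the next gene on the same strand, so it cannot be assigned to the end of one or the start of the other. A second pooled summit of 2.52 fell in an intron of enee-1.

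The genes sqt-1 and rol-6 encode collagens whose mutants interact genetically in the roller phenotype, and both had moderate signal past the end. At sqt-1 (WBGene00005016, II:11336693-11337837, − strand) the pooled summits had signal values of 4.52 (rank 2553), 220 bp past the end, and 3.40 (rank 5594) in the 3′ UTR. Replicate 1 placed 1 summit of 2.21 (rank 3673) 10 bp past the end and replicate 2 placed 1 of 3.05 (rank 3689) 32 bp past it. The replicate positions at sqt-1 were thus 22 bp apart, with a value below its list's median in replicate 1 and above it in replicate 2. At rol-6 (WBGene00004397, II:8733050-8734239, + strand) the pooled summits were 5.10 (rank 1752) at 244 bp past the end, 3.15 at 444 bp past it and 2.51 in a coding exon. Replicate 2 had a summit of 4.02 (rank 1667) at 228 bp past the end, while the only summit of replicate 1, of 3.92 (rank 564), was in the coding exon 446 bp from the start. Replicate 2 also had a summit of 2.83 (rank 4385) in the coding exon, 859 bp from the start, whose peak overlapped that of replicate 1. The strongest rol-6 summit was thus in the gene in replicate 1 and past its end in replicate 2.

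Of the strut collagens, bli-2 had strong signal at its end in both replicates and bli-1 did not. The bli-2 gene (WBGene00000252, II:5651394-5652434, − strand) lies inside zyg-1, a gene of the opposite strand that encodes a kinase of centriole duplication. Its pooled summits had signal values of 10.5 (rank 201) at 67 bp past the end, in an intron of zyg-1, and 5.49 (rank 1374) in its own coding exon. Replicate 1 had summits of 4.96 (rank 225) at 218 bp past the end and of 2.20 at 3 bp past it, and replicate 2 had 1 of 9.09 (rank 146) in the coding exon, 71 bp before the end. All 5 of these summits lay within 218 bp of the bli-2 end. The bli-1 gene (WBGene00000251, II:10708960-10712156, + strand) is the longest of the 10 with 3197 bp and lies inside dph-2. Its stronger pooled summit, 4.47 (rank 2659), lay 1053 bp upstream of the start in a coding exon of the neighbouring collagen gene col-80, and replicate 1 had a summit of 3.86 (rank 609) there. Replicate 2 instead had summits of 3.50 (rank 2531) and 3.45 (rank 2614) at 610 and 363 bp upstream. Past the bli-1 end there was a pooled summit of 2.56 (rank 10551) with no peak of a single replicate overlapping it.

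Among the collagens of the dumpy and long mutants, dpy-13 had the most summits, 5 in the pooled list. The dpy-13 gene (WBGene00001074, IV:4235614-4236710, + strand) had its highest pooled value, 9.63 (rank 261), 1048 bp upstream in an intron of zipt-2.2, a zinc transporter gene that is transcribed the other way and whose start was 799 bp from the summit. Summits of 3.54, 4.23 and 7.88 (rank 486) followed along the coding exons at 348, 605 and 909 bp from the start, and 1 of 3.54 lay 422 bp past the end. In replicate 2 the strongest was 9.69 (rank 116) at 128 bp past the end, followed by 7.06 (rank 306) upstream and 4.72 (rank 1026) at 457 bp past the end. In replicate 1 they were 3.12 (rank 1349) in the coding exon and 2.01 (rank 4509) upstream. Both replicates thus had summits upstream of dpy-13 and within 500 bp of its end. The upstream peaks overlapped between the replicates. Near the end they did not, with the replicate 1 summit 464 bp before the end and those of replicate 2 past it.

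The dpy-17 and lon-3 genes had weaker signal. DPY-17 is a collagen that acts together with SQT-3 in body shape. The dpy-17 gene (WBGene00001076, III:5107330-5108492, + strand) had a pooled summit of 3.99 (rank 3660) 467 bp upstream and 1 of 2.47 (rank 11298) 464 bp past the end. The summit past the end was nearest to the start of sax-2, and no peak of a single replicate overlapped it. The upstream summit fell in the 3′ UTR of F54D8.6, the preceding gene of the same strand, and replicate 2 had a summit of 4.73 (rank 1022) at 432 bp upstream. Replicate 1 had none there, and its only summit, 2.66 (rank 2309), was in the coding exon 387 bp from the start. The lon-3 gene (WBGene00003057, V:12197437-12198645, − strand), whose loss makes animals long, lies inside ogdh-2. It had 1 pooled summit of 3.28 (rank 6128) in its coding exon, 3 summits of 2.05 to 3.02 in replicate 2 and none in replicate 1.

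The dpy-14 gene (WBGene00001075, I:6843589-6845142, + strand) had 0 summits in all of the lists. The nearest summits were 2.04 kb from the gene in the pooled list (signal value 2.24), 4.69 kb in replicate 1 and 3.09 kb in replicate 2. Next genes lie 245 bp upstream (dpf-3) and 34 bp downstream (H27M09.5).

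**Figure D2:**
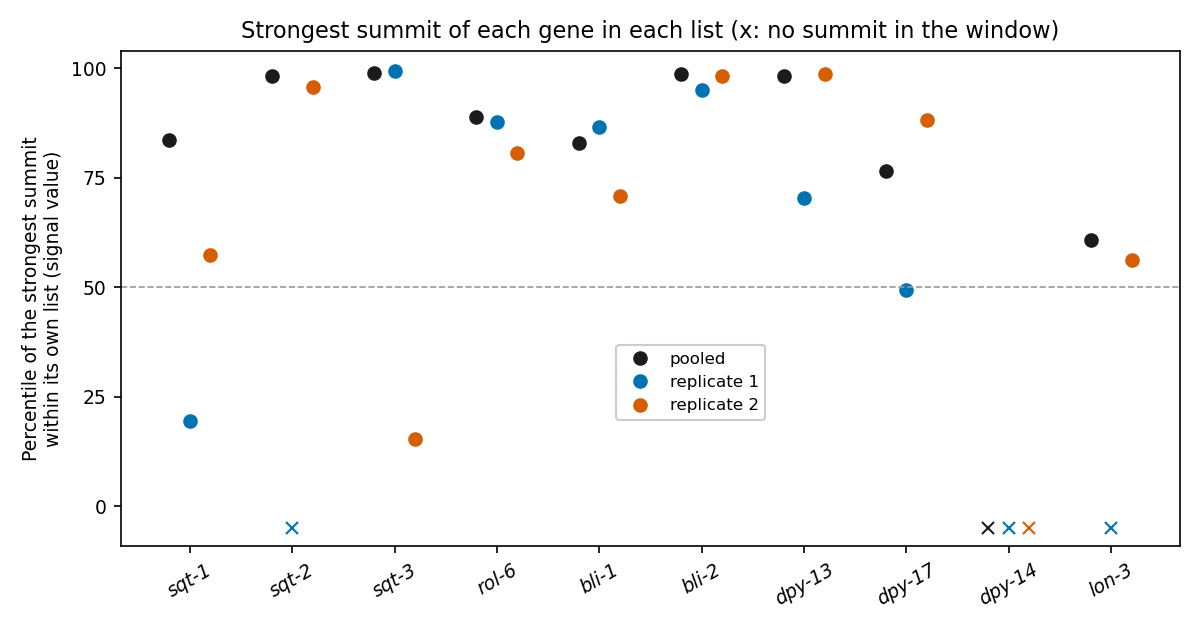
Percentile of the strongest summit of each gene among all signal values of the same list, for the pooled list (black), replicate 1 (blue) and replicate 2 (orange), with a cross where the window held no summit and a dashed line at the list's median. The strongest bli-2 summit was at the percentiles 98.7, 95.1 and 98.3, while sqt-3 was at 99.4 in replicate 1 and 15.5 in replicate 2, whose summit beyond the gene missed the window.

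Counted over the windows, the genes had summits more often than protein-coding genes at large. A pooled summit was found for 9 of 10 genes, against 53.4% of all 19973 protein-coding genes by the same rule. Replicate 1 had a summit for 7 of 10 (22.3% of all genes) and replicate 2 for 9 of 10 (35.9%). Both replicates had a summit for 7 of 10 (12.6% of all genes): sqt-1, sqt-3, rol-6, bli-1, bli-2, dpy-13 and dpy-17. In 5 of these, sqt-1, sqt-3, rol-6, bli-2 and dpy-13, a peak of one replicate overlapped a peak of the other by at least 1 bp (6.01% of all genes). The windows were not longer than usual, with a median of 3676 bp against 4527 bp, and they held 0.560 pooled summits per kb against 0.176 over all genes. The genes are few and were chosen with earlier results of these data known, so these shares are descriptions without a test.

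The 1000 pooled peaks of highest signal value, from 6.10 upward, included a summit for 4 of 10 genes, sqt-2, sqt-3, bli-2 and dpy-13, against 6.29% of all genes. The nearest values below that rank were 5.49 at bli-2 and 5.10 at rol-6. Over the 9 genes with a summit the median of the strongest signal value was 5.10, and over the 10666 such genes of the genome it was 3.38. In the collagen lists compared below it was 4.72 for the numbered cuticle collagens, 9.43 for other collagens with body shape mutants and 3.38 for the furrow collagens. None of the 57 peaks that the authors kept after their reproducibility threshold (lowest signal value 16.4) lay in a window. This was 0 of 10 genes (exact 95% interval up to 30.8%, counting error only), against 0.401% of all genes. The nearest of these peaks was 8.82 kb from bli-2, and the median distance over the 10 genes was 643 kb.

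The position of summits along the genes was compared after it had been seen, over the 16314 genes longer than 1000 bp, in which the zones around start and end do not overlap. Within 500 bp of the end, to either side, 8 of 10 genes had a pooled summit, against 20.0% of all these genes. Within 500 bp of the start 5 of 10 did, against 19.1%. In replicate 1 the counts were 4 at the end (5.88% of all genes) and 2 at the start (5.64%). In replicate 2 they were 6 at the end (11.8%) and 5 at the start (11.5%). Both replicates had a summit within 500 bp of the end for 3 of 10 genes, sqt-1, bli-2 and dpy-13 (1.85% of all these genes), and within 500 bp of the start for 1 of 10, dpy-17 (1.71%). In these zones of dpy-13 and dpy-17 the peaks of the replicates did not overlap each other. The strongest pooled summit of a gene lay within 500 bp of its end for 5 of the 9 genes with a summit, sqt-1, sqt-2, sqt-3, rol-6 and bli-2, against 23.2% of all such genes. Of the 22 pooled summits 3 lay upstream of the start, 9 in the gene and 10 past its end. By annotation 8 were in coding exons, 7 of them of the collagen itself, 7 were intergenic, 4 in introns of other genes, 2 in 3′ UTRs and 1 in a 5′ UTR. The nearest protein-coding start was that of the collagen for 16 of the 22 and that of a neighbour for 6. Some of the 16 also lay in another gene, as did the bli-2 summit in zyg-1 and the upstream dpy-17 summit in F54D8.6.

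**Figure D3:**
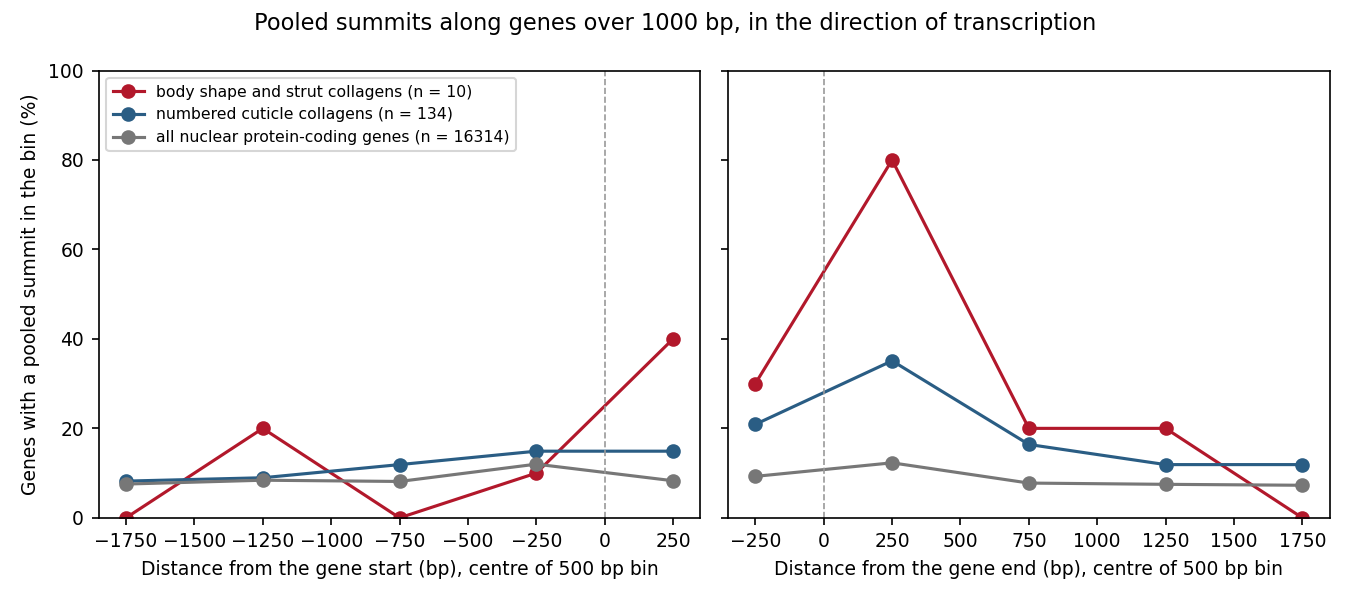
Share of genes over 1000 bp with a pooled summit in each 500 bp bin around the gene start (left) and the gene end (right), for the 10 genes (red), 134 numbered cuticle collagens (blue) and 16314 protein-coding genes (grey). The bin just past the end holds a summit in 80.0%, 35.1% and 12.3% of them.

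Other collagens were set beside these for comparison. The numbered cuticle collagens (col genes) had a pooled summit for 113 of 156 (72.4%, against 53.4% of all genes) and 1 among the 1000 highest for 42 (26.9%, against 6.29%). They had 1 within 500 bp of the end for 56 of the 134 longer than 1000 bp (41.8%). Within 500 bp of the end a pooled summit was also found for 3 of 3 other collagens with body shape mutants that are longer than 1000 bp, but for 1 of 6 furrow collagens (16.7%), against 20.0% of all genes. Summits near the end were thus found in other cuticle collagens too, with shares that differed between the lists, and the differences were not tested. Thresholded summits lay in the windows of col-93 and col-94, which share a summit of 18.3, and of col-20 and col-73, which share 1 of 17.2. Of these summits the one of 18.3 was 400 bp past the end of col-94 and 799 bp upstream of col-93. The one of 17.2 was 247 bp past the end of col-73 and 1060 bp upstream of col-20. The nearest starts were those of col-93 and col-20, so neither summit can be assigned to a gene end alone. Of the other collagens with body shape mutants, dpy-4 had a summit of 14.3 (rank 83) 142 bp past its end, dpy-5 1 of 12.6 (rank 118) 435 bp past its end, and rol-8 1 of 6.25 (rank 928) 379 bp before its end. All 4 genes of that list, which also holds bli-6, had a pooled summit. The 6 furrow collagens had a pooled summit for 3 genes, 1 of them among the 1000 highest (dpy-8, 6.94, at 338 bp from the start). Of the 6, 0 had summits of both replicates, against 12.6% of all genes.

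Genes that act on collagens were examined as well. Of 12 genes for collagen processing and cross-linking, 11 had a pooled summit (53.4% of all genes) and 3 had 1 among the 1000 highest (6.29%). Among them were pdi-2, a subunit of prolyl 4-hydroxylase (12.3, in the gene), and dpy-31, the protease that cuts SQT-3 (9.31, 471 bp past its end and nearest to the start of rpl-6). The other was phy-2, another prolyl 4-hydroxylase subunit (6.14, 268 bp before its end and nearest to the start of F35G2.3). Of 15 epidermal regulators all 15 had a pooled summit. Those of lin-26 (9.15, nearest to the start of F18A1.1) and sma-9 (6.65) were among the 1000 highest. Within 500 bp of the end 9 of the 12 and 10 of the 15 had a pooled summit, against 20.0% of all genes longer than 1000 bp. Windows of these lists were longer, with medians of 7220 and 7972 bp against 4527 bp over all genes. Per kb they held 0.376 and 0.386 pooled summits, against 0.560 in the 10 genes and 0.176 over all genes. The other collagens with body shape mutants held 0.901 per kb, the numbered collagens 0.357 and the furrow collagens 0.244.

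Base composition differed along with position. The genes were 40.2% (dpy-14) to 55.2% G+C (dpy-13), all above the median of 36.4% over protein-coding genes, and dpy-14, the gene without a summit, had the lowest value. Within 50 bp of the 7 pooled summits in coding exons of the collagens themselves the median was 60.4% G+C, against 37.6% over 15640 nuclear summits of the pooled list. Within 50 bp of the 10 summits past a gene end it was 34.2% (range 24.8 to 47.5%), near the 35.4% of the nuclear genome. The part of base composition in the calls was not tested.

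**Figure D4:**
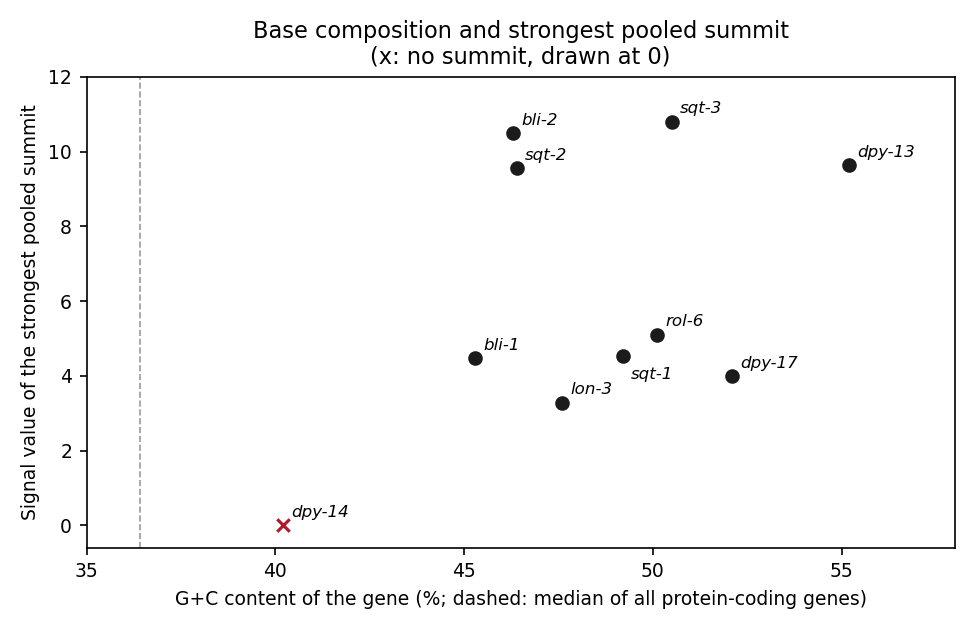
Signal value of the strongest pooled summit against the G+C content of the gene for the 10 genes, with dpy-14 drawn as a cross at 0 for want of a summit and the median of all protein-coding genes as a dashed line. The G+C content is that of the whole gene, also where the strongest summit lay outside it, as at bli-2. A relation of signal to G+C content was not tested.

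The coding sequences share a repeat. Apart from bli-1 with 948 codons they have 298 to 352 codons, of which 46.3 to 52.3% lie in Gly-X-Y runs of at least 3 repeats, and bli-1 has 16.1%. The dpy-14 coding sequence had 52.2% in such runs. A relation of the repeat to the presence of summits was not tested. The arrangement of the genes differed more: bli-1, bli-2 and lon-3 are nested in another gene (3 of 10, against 3.55% of protein-coding genes). From 250 bases before to 50 bases after the start, GATAAG or its reverse complement was present in 6 of 10 genes (16.7% of all such windows), TATAAA or its reverse complement in 7 (37.9%) and TAATTA, its own reverse complement, in 2 (15.5%). Within 50 bp of the 22 pooled summits TAATTA was present at 2 (3.92% of all nuclear summits), GATAAG at 1 (3.98%) and TATAAA at 2 (9.59%).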

How the data were processed

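Whole L4 larvae were profiled by ChIP-seq in 2 biological replicates, per the labels. The peak lists were deposited by the authors in narrowPeak form, and the ce11 lists were used. The file descriptions deposited with them call the relaxed lists peaks with background for an irreproducible discovery rate (IDR) step, and the pooled list and the thresholded list draw on both replicates. Neither the labels nor the files name the caller, the aligner, the read length or the IDR threshold. The signal value of a peak is a score written by the authors' caller. The −log10 q-value was deposited by the authors too and was not used to rank peaks. Depth is unknown, so a peak has no interval of its own, and the intervals given are exact Clopper-Pearson intervals at 95% for counting error only.

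Genes came from Ensembl release 115 and sequence from the RefSeq assembly, both of the ce11 build, with Python 3.11.15, numpy 2.4.6, pandas 2.3.3 and scipy 1.17.1. Mitochondrial genes were left out. A summit was counted for every gene whose window held it. Annotated starts are often trans-splice sites. Window rules were tested on simulated summits. No chance test was run: shares over all protein-coding genes stand beside the members' counts. Members, lists and windows were chosen with earlier results of these data known, and the zones around start and end after the positions had been seen. All 10 members are named; of the other lists, genes with a summit that was thresholded or among the 1000 highest were eligible. Alternatives varied the window, the minimum signal, the overlap rule, gene assignment and the replicate. Lists on ce10 were not analysed here.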

Additional observations from a re-analysis of the deposited data

How the results depend on the processing

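Over 39 alternatives 29 counts of members stayed within 1.5 times the reported count and 10 moved further. The 9 genes with a pooled summit became 6 to 9 under all alternatives run, where the shares of all genes were 22.3 to 55.5%. The 6 came from a window around the start alone (34.5%). When a single replicate's list replaced the pooled one they were 7 in replicate 1 (22.3%) and 9 in replicate 2 (35.9%). The 7 genes with a summit in both replicates fell to 3 with a window around the start alone (2000 bp upstream to 500 bp downstream, 4.97% of all genes) and to 4 with peaks at or above the median of their list (5.63%). The 4 genes with a summit among the 1000 highest fell to 1 when the window stopped at the gene end (5.23%) or held the start alone (3.76%). They rose to 8 with the 5000 highest (24.1%). The 1000 highest of replicate 1 gave 4 genes (5.98%), sqt-3, rol-6, bli-1 and bli-2. Those of replicate 2 gave 3 (6.35%), sqt-2, bli-2 and dpy-13. Only bli-2 was in both, and the 1000 highest are a larger part of these shorter lists. The count of thresholded summits was 0 in every window tried. For the zones, alternatives chosen after seeing the data gave 1 gene within 250 bp of the start (11.2%), 3 near the start with peaks at or above the list median (11.2%), and 5 within 250 bp of the end (11.2%). With a single replicate's list the counts were 2 to 5 near the start (5.64 to 11.5%) and 4 to 6 near the end (5.88 to 11.8%). The cause of these moves was not tested beyond what each rule leaves out. No paired analysis was possible because the 2 samples form a single group. Depth is unknown, and with peaks of 370 to 470 bp a summit past the end of sqt-2, where the next gene starts after 207 bp, cannot be assigned to either gene.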
